A study of Mus musculus with 23 samples.

Results

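Binding sites of p65 in resting macrophages with and without the corepressor NCoR were compared through the 2 p65 peak lists made from untreated cells. These lists hold 2929 of the 58278 peaks in the 5 peak lists of the series. They are 702 peaks from wild type and 2227 peaks from knockout cells, chosen as the p65 lists whose labels give no treatment. The cells were thioglycollate-elicited peritoneal macrophages of male C57BL/6 mice aged 6 to 8 weeks, collected 3 to 4 days after the injection and kept overnight in 0.5% serum. Mice of both groups were NCoR fl/fl on C57BL/6, and were Lys M-Cre -/- in the wild type and Lys M-Cre +/- in the knockout group. Both groups therefore carry the floxed NCoR alleles, and the Cre transgene, driven by the lysozyme M gene of myeloid cells, is present in the knockout alone. The labels do not give the number of mice behind a library or whether animals were pooled. Each genotype had 1 p65 library, precipitated with the same antibody (Santa Cruz sc-372), and both lists were called against the same input from wild type macrophages. No difference between the genotypes has a replicate check, no test between them was possible, and each interval covers counting error only. Peak lists measure neither NCoR nor macrophage marker RNAs, so deletion of NCoR and the identity of the cells were not checked here.

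p65, also called RelA, is a DNA-binding subunit of NF-κB, the factor that turns on inflammatory genes when macrophages meet bacterial products. In resting cells most NF-κB is held in the cytoplasm by inhibitor proteins of the IκB family, and signalling from Toll-like receptors releases it to the nucleus. NCoR is a corepressor that brings histone deacetylase 3 to nuclear receptors and other transcription factors, and it keeps many of their target genes low in unstimulated macrophages. The comparison asks how loss of NCoR changes p65 on chromatin before any inflammatory stimulus. In a population of cells, a site bound in fewer cells and a site bound more weakly in each cell cannot be told apart.

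The libraries were small and nearly equal in depth, with 777228 tags (aligned reads) in wild type and 786121 in knockout. Height is given here as the deposited normalized tag count, the authors' tags per peak scaled to a library of 10000000, so 1 tag is worth 12.9 in wild type and 12.7 in knockout. A peak needed 5 tags to be listed in either library. Peaks of the wild type list are 103 bp wide and those of the knockout list 126 bp, so a site in the knockout list reaches 5 tags at a lower density. Heights of the genotypes are therefore compared per bp of peak, and the lowest listed height per bp was 0.624 in wild type and 0.505 in knockout. Sites are named by their mm9 position, and genes near them were not assigned.

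Peaks at which the input itself gave 1 or more tags after scaling were treated apart. There were 44 such peaks in wild type, 6.27% of the list (exact Clopper-Pearson 95% interval 4.59 to 8.32%), and 36 in knockout, 1.62% (1.13 to 2.23%). They held 22.5% of the tags in listed wild type peaks and 6.90% of those in knockout peaks. Most lay in a few places, with 22 wild type and 18 knockout peaks in the 100 kb window of chromosome 9 that starts at 3000001, and 5 and 4 in the window of chromosome 2 that starts at 98500001. The tallest in wild type, on chromosome 2 from 98507241 to 98507343, had a height of 1248 (exact Poisson 95% interval 1012 to 1522) and 1094 (875 to 1351) in knockout. Just below the limit, at 0.5 to under 1 control tag, were 4 wild type peaks of height 90.1 to 128.7 and 22 knockout peaks of 76.3 to 292.6. Just above it, at 1 to under 2, were 16 wild type peaks of 90.1 to 283.1 and 9 knockout peaks of 114.5 to 457.9.

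Leaving those peaks aside, 658 wild type and 2191 knockout peaks remained, 3.33 times as many in the knockout (3.05 to 3.64). The knockout list was longer in each class of tag number, and the gap was widest among the tallest peaks. At 5 tags, the lowest listed, there were 315 wild type and 940 knockout peaks, a ratio of 2.98. At 10 to 14 tags there were 44 and 167, a ratio of 3.80. At 20 to 29 tags there were 8 and 41, and at 30 tags or more there were 2 and 29, a ratio of 14.5. Low peaks nonetheless made up most of both lists, since 68.1% of wild type and 64.7% of knockout peaks rested on 5 or 6 tags. The share of library tags inside listed peaks of either input class was 0.832% in wild type and 2.37% in knockout. The fragment length given in the list header also differed, 102 bp in wild type and 92 bp in knockout. With 1 library each, such differences between libraries cannot be told apart from the genotype.

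The surplus depended on the height at which peaks were counted. At the lowest wild type height per bp, which 7 tags reach in the wider knockout peaks, there were 658 wild type and 773 knockout peaks, a ratio of 1.17. At 2 times that height there were 68 and 149, a ratio of 2.19. At 3 times there were 24 and 73, and at 5 times 4 and 27, a ratio of 6.75. Most of the surplus in number therefore lay in knockout peaks of 5 or 6 tags, below the lowest density listed in wild type. The 478 knockout peaks of 6 tags, at 0.606 per bp, fall only just below it, and with them the knockout number is 1251. A surplus of tall peaks was present at equal density. The tallest wild type peak had 4.25 per bp, and 11 knockout peaks lay above it.

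**Figure D1:**
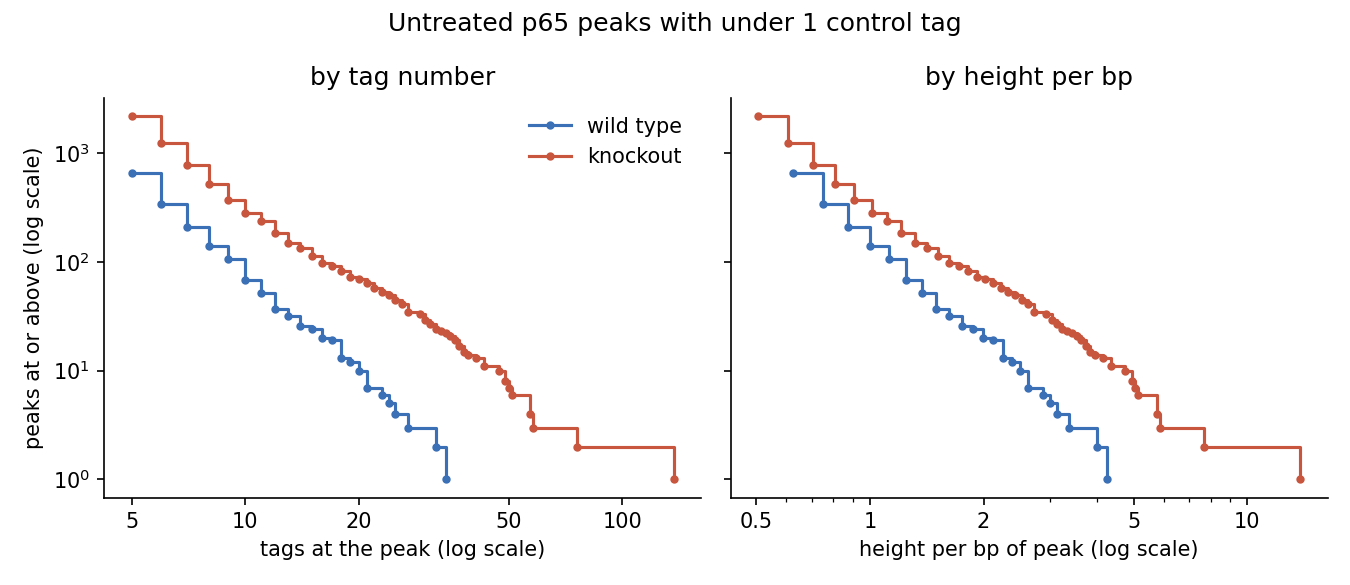
Number of untreated p65 peaks (vertical axis, log scale) at or above a tag number (left, log scale) or a height per bp (right, log scale) in the wild type and knockout lists, for peaks with under 1 control tag. By tag number the knockout line lies above the wild type line throughout. By height per bp the knockout line starts lower, at 0.505 with 2191 peaks. Its points next to the lowest wild type height, 0.624, are 1251 peaks at 0.606 and 773 at 0.706. Peaks at or above that wild type height number 658 in wild type and 773 in knockout, and at 5 times it 4 and 27.

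The surplus was spread over the genome. On each of the 19 autosomes and the X chromosome the knockout list had more peaks, from 2.22 times as many on chromosome 6 (49 and 109) to 5.00 times on X (9 and 45). In windows of 100 kb, 603 held a wild type peak, 1917 held a knockout peak and 323 held both. Clusters listed in 1 genotype were few. The largest knockout cluster had 9 peaks within 19.3 kb on chromosome 11, from 104378717 to 104398026, with heights of 76.3 to 267.1, and no wild type peak lay in its window. The largest wild type cluster had 6 peaks within 16.0 kb on chromosome 2, from 174155795 to 174171836, with heights of 64.3 to 193.0 and no knockout peak. The densest window of both lists, on chromosome 11 from 102000001 to 102100000, held 11 wild type and 13 knockout peaks, of which 10 overlapped. By the authors' fold, peaks of the knockout and wild type clusters had a median of 23.2 and 23.5 times the density of the surrounding 10000 bp. In the densest window it was 9.87 in wild type and 7.35 in knockout. The list medians were 80.1 and 78.4, so clustered peaks stood less far above their surroundings.

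Overlap between the genotypes, counted from 1 bp, was partial and was larger for taller peaks. Among peaks with under 1 control tag, 255 of 658 wild type peaks had a knockout peak, 38.8% (35.0 to 42.6%), and 254 of 2191 knockout peaks had a wild type peak, 11.6% (10.3 to 13.0%). No peak overlapped more than 1 peak of the other list. Of wild type peaks with 5 tags, 25.1% were also listed in the knockout, against 68.2% of those with 10 to 14 tags. Of knockout peaks with 5 tags, 4.68% were also listed in wild type, against 20.4% at 10 to 14 tags, 70.7% at 20 to 29 and 89.7% at 30 or more. The tallest sites were thus mostly common to the genotypes, and the low ones mostly were not. At places where the input gave 1 or more tags, 29 of 44 wild type peaks (65.9%, 50.1 to 79.5%) and 30 of 36 knockout peaks (83.3%, 67.2 to 93.6%) were shared.

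**Figure D2:**
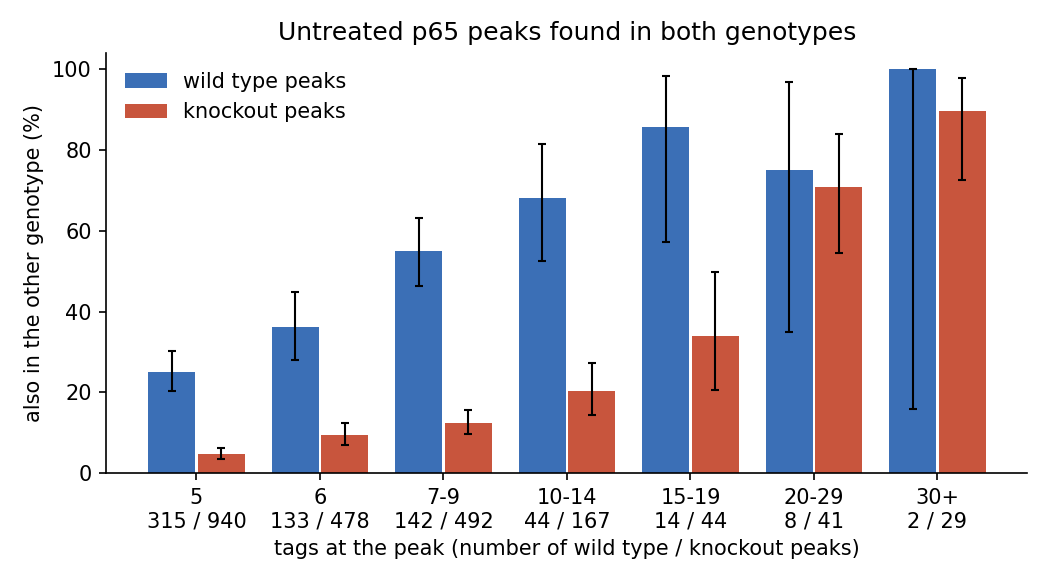
Share of untreated p65 peaks with under 1 control tag that overlap a peak of the other genotype (vertical axis, percent), by the number of tags at the peak (horizontal axis); error bars are exact 95% intervals and the numbers under the axis are wild type and knockout peaks. The knockout share goes from 4.68% at 5 tags to 89.7% at 30 tags or more, and the wild type share from 25.1% to 100%, the last from 2 peaks.

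Peaks listed in 1 genotype only were low, 403 in wild type and 1937 in knockout. Of the wild type ones 79.7% had 5 or 6 tags, and of the knockout ones 68.6%. Few were near misses of position, since a peak of the other list was centred within 500 bp of 17 wild type peaks (4.22%) and 19 knockout peaks (0.981%). Absence from a list is not absence of tags. At the same density, 608 of the 1937 knockout peaks (31.4%) would be expected to give 5 or more tags in the narrower wild type peaks, and 73 to give 10 or more. For the other 68.6% an equal density in wild type has an expected number under 5, so it could have gone unlisted. All 403 wild type peaks would be expected to give 5 or more tags in the wider knockout peaks (median 6.19), and 32 to give 10 or more. These expected numbers leave out counting error, and why the peaks were not listed was not tested.

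Heights at the shared sites were compared one site at a time. At the 254 shared sites with under 1 control tag, the median height per bp was 0.812 in wild type and 0.808 in knockout, and the median ratio of knockout to wild type was 1.07 (order-statistic 95% interval 0.970 to 1.13, quartiles 0.808 and 1.62). A ratio of 2 or more was found at 44 sites, 17.3% of the 254, and a ratio of 0.5 or less at 12 sites, 4.72%. The counting interval of the ratio lay above 1 at 38 sites and below 1 at 1. The spread was lopsided, from 0.367 to 4.69, and summed over the 254 sites the knockout height per bp was 1.37 times that of wild type. At the 30 shared sites where the input gave 1 or more tags, the median ratio was 0.693 (0.588 to 0.763), with 2 sites (6.67%) at 2 or more and 4 sites (13.3%) at 0.5 or less. If those input-rich sites are taken as the reference, as was chosen after seeing the data, the median at the other shared sites becomes 1.54. Without the division by width the medians are 1.31 and 0.848.

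The ratio differed between low and tall sites. A shared site must have 5 tags in each list, so the ratio of a low site cannot lie far from 1. With 10 to 12 tags in both lists together the median ratio was 0.809 (77 sites), and with 13 to 19 tags it was 0.924 (91 sites). With 20 to 39 tags it was 1.91 (59 sites), and with 40 or more it was 2.02 (1.80 to 3.14, 27 sites). All 27 of these last sites had the higher height per bp in knockout. A sum over both lists is reached more easily by a site that is high in 1 of them, so these medians are a description of the taller sites.

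The tallest knockout site of all, on chromosome 17 from 4626283 to 4626409, had 137 tags and a height of 1743 (exact Poisson 95% interval 1463 to 2060). The nearest wild type peak, from 4626465 to 4626567, was centred 170 bp away and had 20 tags and a height of 257.3 (157 to 397). The peaks did not overlap, so each counts as listed in 1 genotype only, and per bp the knockout peak was 5.54 times as high. Only 0.568 of the knockout tags lay on the side their strand predicts, against a median of 0.833 in that list, so this summit is less sharply placed than most.

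Of the 10 tallest sites of each genotype, 6 were the same. The knockout height at chromosome 11 from 25000108 to 25000234 was 966.8 (762 to 1210) and the wild type height 347.4 (229 to 505), 2.27 times as high per bp (conditional binomial 95% interval 1.45 to 3.67). On chromosome 2 from 16604674 to 16604800 it was 725.1 in knockout and 321.7 in wild type, a ratio of 1.84 (1.13 to 3.08). At these sites the genotypes differed by more than counting error. At some other tall sites they did not. At chromosome 1 from 12634827 to 12634953 knockout had 737.8 and wild type 411.7, a ratio of 1.46 with an interval of 0.936 to 2.33. On chromosome 5 from 114623079 to 114623205, where the tallest wild type peak lies, it was 597.9 and 437.5, a ratio of 1.12 (0.703 to 1.79). The remaining sites of the 6 were on chromosome 14 from 104736146 (636.0 and 257.3, ratio 2.02) and on chromosome 9 from 70653947 (597.9 and 257.3, ratio 1.90). Among the other tall wild type peaks, that on chromosome 11 from 102063905, in the densest window, had 270.2 against 229.0 in knockout, a ratio of 0.693 (0.348 to 1.37), and that on chromosome 17 from 39984955 had 295.9 and overlapped a knockout peak of 457.9 with 1.1 control tags.

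Other tall knockout sites were low in wild type. At chromosome 9 from 62456365 to 62456491 knockout had 648.8 and wild type 128.7, a ratio of 4.12 (2.07 to 9.11). On chromosome 3 from 152786711 to 152786837 it was 623.3 and 141.5, a ratio of 3.60 (1.85 to 7.68). On chromosome 6 from 125827050 to 125827176 it was 648.8 and 154.4, a ratio of 3.43 (1.81 to 7.08). Only 0.485 of the tags of that knockout peak lay on the side their strand predicts, so its summit is not sharply placed. The highest ratio of any shared site with 20 or more tags was on chromosome 6 from 132413750 to 132413852, where 64.3 in wild type stood against 368.9 in knockout, a ratio of 4.69 (1.79 to 15.5). Next came sites on chromosome 5 from 89965195 (90.1 and 457.9, ratio 4.16), on chromosome 6 from 10136367 (90.1 and 445.2, ratio 4.04) and on chromosome 1 from 45008025 (64.3 and 305.3, ratio 3.88). At each of these the wild type peak rested on 5 to 12 tags, so the intervals are wide and all lie above 1.

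At the other end of the range, the lowest ratio among such sites was on chromosome 16 from 49970719 to 49970821, with 193.0 in wild type and 89.0 in knockout, a ratio of 0.377 (0.130 to 0.983). This was the 1 site whose counting interval lay below 1. The next lowest were on chromosome 10 from 79568306 (180.1 and 89.0, ratio 0.404, 0.138 to 1.07) and on chromosome 10 from 18735158 (167.3 and 101.8, ratio 0.497, 0.179 to 1.29). Sites on chromosome 11 from 70409304 and on chromosome 12 from 104579554 had ratios of 0.539 and 0.560. Apart from the site on chromosome 16, their intervals include 1.

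Some tall peaks had no peak of the other genotype within 500 bp. In knockout the tallest was on chromosome 10 from 36983525 to 36983651, with 41 tags and a height of 521.5 (374 to 708). It was followed by peaks on chromosome 3 from 148980150 (330.7), chromosome 19 from 9206722 (318.0), chromosome 4 from 120697465 (292.6) and chromosome 8 from 3754376 (292.6). In wild type the tallest was on chromosome 17 from 39984499 to 39984601, with 24 tags and a height of 308.8 (198 to 459). Its nearest knockout peak was 557 bp away, and its own tag density was only 6.58 times that of the surrounding 10000 bp, by the authors' fold, against a list median of 80.1. The others were on chromosome 2 from 174167329 (193.0) and from 174155795 (180.1), on chromosome 12 from 118719697 (167.3) and on chromosome 2 from 28395590 (167.3).

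The untreated sites were then set against the p65 lists of the same genotypes treated for 1 h with Kdo2-Lipid A (KLA, 100 ng/ml), a TLR4 agonist that sends NF-κB to the nucleus. The 16109 sites listed after KLA in both genotypes, with under 1 control tag in the knockout KLA list, were ranked by their mean height per bp over both genotypes. This ranking uses none of the untreated tags, but it was chosen after seeing the data. Unlike the other p65 lists, that of KLA-treated wild type cells was made with no input.

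At the strongest KLA sites, the untreated knockout was not above the untreated wild type. At the 58 shared untreated sites that fall among the 1000 tallest KLA sites, the median height per bp was 0.999 in wild type and 0.606 in knockout, and the median ratio was 0.713 (0.673 to 0.809), which becomes 1.03 when input-rich sites are the reference. These sites rested on medians of 8 tags in wild type and 6 in knockout, and equal tag numbers give a ratio of 0.808 per bp. At an equal lowest height per bp the median was 0.809 (28 sites), with an interval that includes 1 (0.661 to 1.13). None of the 58 had a ratio of 2 or more, against the 17.3% of all shared sites. Of the 12 sites at 0.5 or less, 4.72% of all, 11 were among the 58. At ranks 1001 to 5000 the median ratio was 0.970 (0.809 to 1.12, 54 sites). At rank 5001 and lower it was 1.32 (1.08 to 1.94, 60 sites), and 18 of the 60 had a ratio of 2 or more. Sites with another KLA peak, mostly listed in 1 genotype, had a median of 1.29 (46 sites), and sites with no KLA peak 1.29 (36 sites). The 142 sites outside the 5000 tallest thus had a median ratio 1.82 times that of the 58, a quotient that no scaling of the libraries alters, although 1 such scaling puts both medians below 1 (to the height in listed peaks, 0.358 and 0.197).

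**Figure D3:**
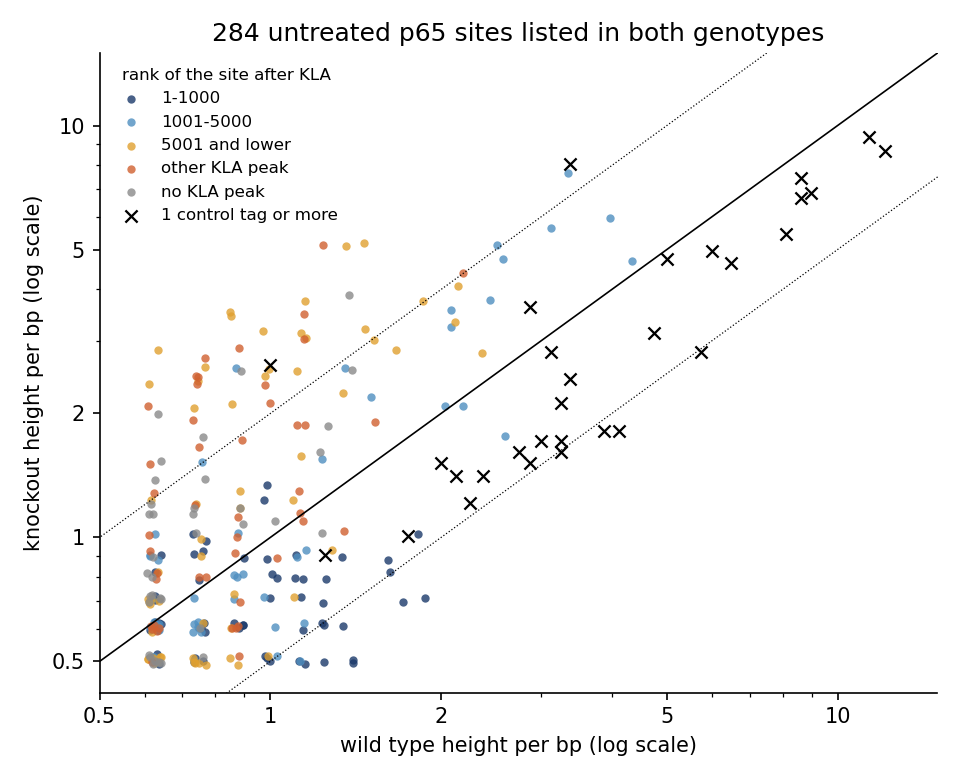
Height per bp of the 284 shared untreated p65 sites in wild type (horizontal axis, log scale) and knockout (vertical axis, log scale), coloured by the rank of the site after KLA, with crosses for sites of 1 control tag or more; the solid line marks equal heights, the dotted lines ratios of 2 and 0.5, and points are moved by at most 3% so that equal values can be seen. Sites among the 1000 tallest after KLA gather at the lower left, mostly below the line of equal heights, and none of them lies above the upper dotted line.

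Among sites with 20 or more tags in both lists together, the median ratio was 0.549 at the 1000 tallest KLA sites (8 sites), 1.57 at ranks 1001 to 5000 (17 sites) and 2.53 at lower ranks (28 sites). These values only describe the taller sites, since the lower-ranked ones reached 20 tags mainly through the knockout, with medians of 9 tags in wild type and 29 in knockout, against 13 and 9 at the 8 sites. After KLA itself, the median ratio of knockout to wild type height per bp was 0.885 over the 1000 tallest sites. It was 1.03 over those ranked 5001 and lower, a narrower difference in the same order. These sites had to be listed in both KLA lists, whose lowest heights per bp were not compared. Such limits weigh most on low-ranked sites, and whether they moved the ratio there was not tested.

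**Figure D4:**
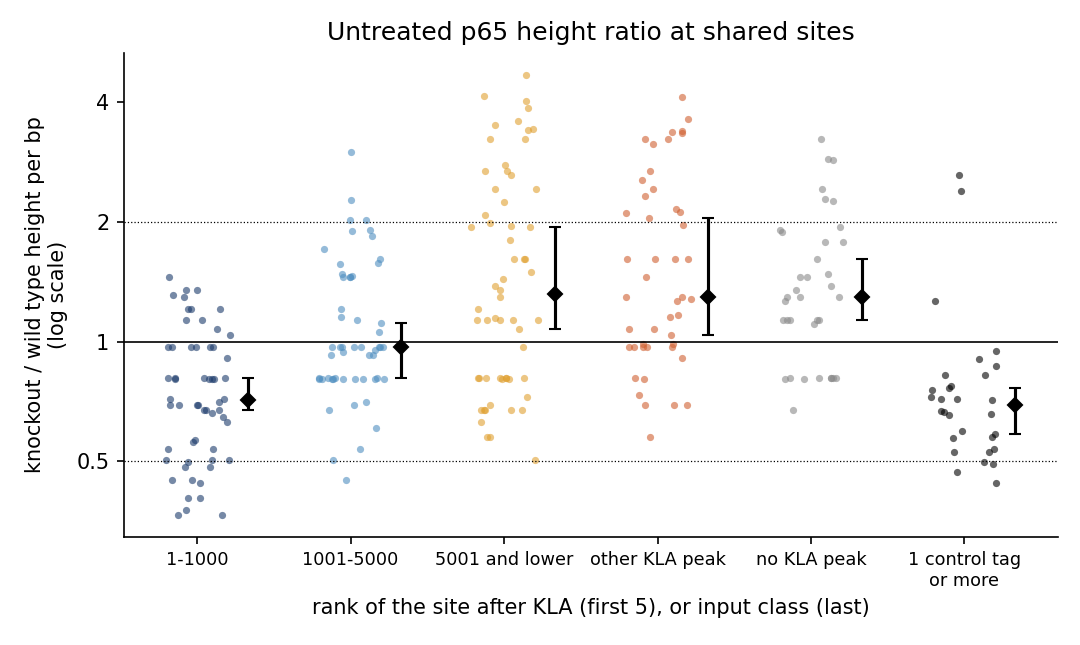
Ratio of knockout to wild type height per bp (vertical axis, log scale) at each shared untreated p65 site, grouped by the rank of the site after KLA, and for sites of 1 control tag or more in the last column; diamonds and bars are medians with order-statistic 95% intervals, and the horizontal spread within a column has no meaning. Medians go from 0.713 at the 1000 tallest KLA sites to 1.32 at rank 5001 and lower, and input-rich sites have 0.693.

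The sites at which the knockout was at least 2 times as high were by their medians also sharply placed, although that on chromosome 6 from 125827050 was not. These 44 sites lay on 16 chromosomes. They had a median of 7 tags in wild type and 25.5 in knockout. In the knockout their density was a median of 386 times that of the surrounding 10000 bp, by the authors' fold, against 78.4 over the 254 shared sites, and a median of 0.947 of their tags lay on the side their strand predicts, against 0.857. These measures come from the same tags as the height, so they add no independent evidence. After KLA none of them was among the 1000 tallest sites, against 22.8% of the 254 shared sites. Of the 44, 18 (40.9%, against 23.6%) ranked 5001 or lower and 16 (36.4%, against 18.1%) had another KLA peak. Ranks 1001 to 5000 held 4 (9.09%, against 21.3%). The 6 with no KLA peak (13.6%) were near the share over all shared sites, 14.2%.

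The tallest untreated sites, with 20 or more tags, were not those that were strongest after KLA. None of the 10 wild type and none of the 70 knockout peaks with 20 or more tags lay at 1 of the 1000 tallest KLA sites. Over all wild type peaks with under 1 control tag, 22.7% of the shared ones and 21.1% of those listed alone did. At 10 or more tags the wild type shares were higher, 14 of 50 (28.0%) and 7 of 18 (38.9%). In knockout the shares were 22.8% and 3.30% over all peaks, and 4.81% and 2.26% at 10 or more tags. The site on chromosome 11 from 25000108 had a height per bp of 3.37 in untreated wild type and 0.643 after KLA. In knockout it had 7.67 untreated and 1.08 after KLA. On chromosome 1 from 12634827 the heights per bp were 4.00 and 1.07 in wild type and 5.86 and 1.37 in knockout. By contrast, the site on chromosome 10 from 18735158, with a ratio of 0.497 before stimulation, had 3.89 per bp in wild type and 4.15 in knockout after KLA. The KLA lists were far longer, with 30021 wild type and 22585 knockout peaks. Whether heights before and after KLA share a common scale was not tested.

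Presence in the untreated lists followed the same order. Of the 1000 tallest KLA sites, 143 were listed in untreated wild type (14.3%, 12.2 to 16.6%) and 122 in untreated knockout (12.2%, 10.2 to 14.4%), with 61 in both. The numbers listed in 1 genotype were 82 for wild type and 61 for knockout, although the knockout list is more than 3 times as long. At ranks 1001 to 5000 the shares were 3.75% and 6.03%, with 96 wild type and 187 knockout sites listed alone. At ranks 5001 to 16109 they were 1.24% and 3.38%, with 79 and 317 listed alone. With a limit of 7 tags in both lists, the sites listed alone were 46 for wild type and 29 for knockout in the first class, 35 and 58 in the second, and 10 and 100 in the last. Cutting the knockout list at the lowest wild type height per bp instead sets 7 knockout tags against 5 in wild type. The shares were then 14.3% and 4.80% in the first class, 3.75% and 2.05% in the second, and 1.24% and 1.13% in the last. The direction in the second and last classes thus turned. The first class had the lower share in the knockout under each of these 3 limits, but for 2 of them the intervals overlap. These are the lists as deposited and the limit of 7 tags (6.50%, 5.05 to 8.21%, and 4.80%, 3.56 to 6.31%). At the 100 tallest KLA sites the shares were 27% in wild type and 26% in knockout as listed. They were 13% and 14% with 7 tags, and 27% and 14% at the equal lowest height per bp.

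**Figure D5:**
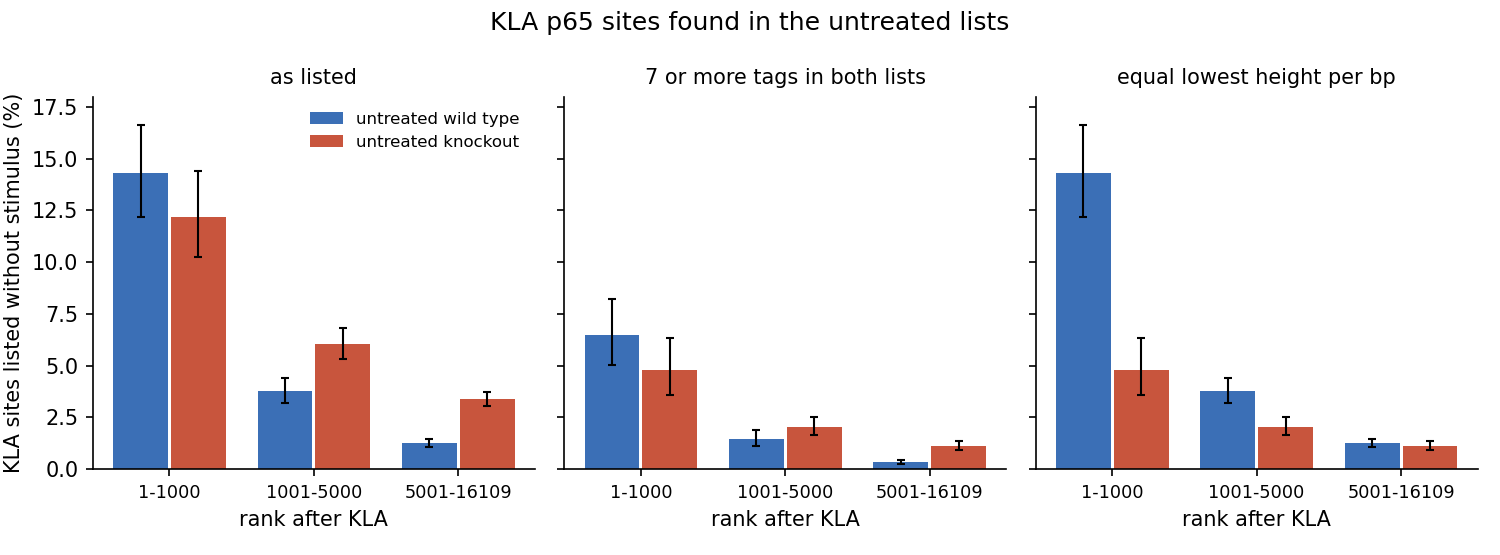
Share of ranked KLA p65 sites that are listed without stimulus (vertical axis, percent) in wild type and knockout, by rank after KLA (horizontal axis), with exact 95% intervals, for the lists as deposited, for 7 or more tags in both, and for the knockout list cut at the lowest wild type height per bp. At ranks 1 to 1000 the knockout bar is the lower one in all 3 panels, with overlapping intervals in the first 2. At ranks 5001 to 16109 it is the higher one in the first 2 and the lower one in the last.

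Read from the side of the untreated peaks, those listed in wild type only and those listed in knockout only differed in how often they were listed after KLA. Of the 403 wild type ones, 21.1% (17.2 to 25.4%) were among the 1000 tallest KLA sites and 20.8% (17.0 to 25.1%) had no KLA peak of either genotype. Of the 1937 knockout ones, 3.30% (2.55 to 4.20%) were among the 1000 tallest and 51.7% (49.5 to 54.0%) had no KLA peak. Of the 177 knockout ones with 10 or more tags, 67.8% (60.4 to 74.6%) had no KLA peak, against 4 of 18 wild type ones. With 20 or more tags the order turned, on few peaks, with no KLA peak at 6 of 15 knockout ones and 2 of 2 wild type ones. The peaks shared by the genotypes resembled the wild type ones, with 22.8% among the 1000 tallest and 14.2% with no KLA peak. Of the 5 tallest knockout peaks with no wild type peak within 500 bp, 3 had no KLA peak and 2, on chromosomes 10 and 8, had 1 in the wild type KLA list alone, with heights of 23.6 and 33.0. Of the 5 tallest such wild type peaks, 4 had a KLA peak in both genotypes. The site on chromosome 12 had 283.0 in wild type and 233.0 in knockout after KLA, and the site on chromosome 2 from 28395590 had 344.3 and 346.6.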

How the data were processed

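Peak lists of p65 ChIP-seq in untreated macrophages were compared, 1 library per genotype. The submitters' processing notes name Bowtie 0.12.7, HOMER (version not given in the sources used here) and the build mm9. Each list comes from 1 library, called at a false discovery rate of 0.001, 4-fold over input and 4-fold over the surrounding 10000 bp, with at most 1 tag per bp, per the file headers. Of 806 putative wild type and 2408 knockout peaks, the input filter removed 84 and 163 and the local filter 20 and 18, per the file headers.

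The deposited normalized tag count is a signal per 10000000 tags, and the deposited control tags are an input signal scaled by the authors. The deposited findPeaks score equals the tags behind the height. The deposited count of total tags was used to describe peaks, the folds over input and local density are the authors' ratios, and the deposited focus ratio is a fraction, that of tags on the expected strand side. Scores and folds describe peaks within a list.

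Peaks overlapped from 1 bp, with the nearest centre taken, with numpy 2.4.6, pandas 2.3.3 and scipy 1.17.1 under Python 3.11.15; figures used matplotlib 3.10.9. Overlap and ratio code were tested on simulated data. Shares have exact Clopper-Pearson, heights exact Poisson, ratios of heights conditional binomial and medians order-statistic intervals at 95%. PCR tags are not independent molecules, so these cover counting error only. No test was run, and a ratio of 2 or more, or 0.5 or less, is a description. Named sites are the 10 tallest per list, the 5 tallest per list with no peak of the other within 500 bp, the 5 highest and 5 lowest ratios among shared sites with 20 or more tags together, the 5 tallest per list with 1 control tag or more and the 3 windows of 100 kb with the largest surplus; of the last 2 groups the leading ones are given. The members, classes and comparisons were chosen with earlier results of these data known. Alternatives were a reciprocal overlap of 50%, centres within 100 bp, control limits of 0.5 and 2, 7 or more tags, an equal lowest height per bp, height not per bp, scaling to listed height, a common peak width, total tags, the tallest overlapping peak, input class by the wild type list, and autosomes and X alone. Ranks after KLA, scaling to input-rich sites and removal of peaks within 10 kb of another were chosen after seeing the data. Motifs and nearest genes were not analysed here, since no mm9 genome or annotation was used.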

Additional observations from a re-analysis of the deposited data

How the results depend on the processing

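Over the alternatives, 111 values stayed inside the interval of the reported value or, for counts and ratios of counts, within 1.5 times of it, and 37 did not. A further 2 were medians whose interval left out 1 and that crossed it. Some of the 111 could not change. No peak overlapped more than 1 peak of the other list, so the tallest overlapping peak is also the nearest. All input-rich peaks had 7 or more tags, so neither the 7-tag limit nor the equal lowest height removed any. With a reciprocal overlap of 50%, 33.7% of wild type and 10.1% of knockout peaks were shared, and 11.2% and 10.0% of the 1000 tallest KLA sites were listed. With the control limit at 0.5, 62.1% of input-rich knockout peaks were shared, and with it at 2, 85.7% of wild type ones. With 7 or more tags in both lists, 47.6% of wild type peaks were shared, the median ratio was 1.29 (1.71 outside the 5000 tallest KLA sites), 25 ratios were 2 or more and 3 were 0.5 or less, and the KLA shares were 6.50% and 4.80%. At an equal lowest height per bp, 25.2% and 21.3% were shared, the peak number ratio was 1.17 and the median ratio was 1.38. That median was 0.809 among the 1000 tallest KLA sites (0.661 to 1.13, 28 sites) and 1.62 outside the 5000 tallest. In that setting 3 ratios were 0.5 or less, and the knockout KLA share was 4.80%. It sets 5 wild type tags against 7 in knockout, since knockout peaks of 6 tags, at 0.606 per bp, fall just under it. With height not per bp, the medians were 1.31, 0.848 at input-rich sites and 0.872 among the 1000 tallest KLA sites, and 5 ratios were 0.5 or less. Scaled to the height in listed peaks with under 1 control tag, the medians were 0.296 over all sites with under 1 control tag, also across 1 from a value whose interval includes 1, 0.192 at input-rich sites, 0.197 among the 1000 tallest KLA sites and 0.358 outside the 5000 tallest, which had been above 1, with 0 ratios of 2 or more and 199 of 0.5 or less. Scaled to input-rich sites, whose median is then 1, the others were 1.54, 1.03 among the 1000 tallest KLA sites, which had been below 1, and 1.87 outside the 5000 tallest, with 82 and 0 ratios past the limits. Without peaks that have another within 10 kb, 50% of input-rich wild type peaks were shared and the median there was 0.866 (8 sites). When height was not divided by width, the 26 named ratios stayed inside their counting intervals, but 2 at input-rich sites crossed 1, from 0.826 to 1.01 on chromosome 9 from 35112989 and from 0.867 to 1.06 on chromosome 2 from 98502882. The cause of these shifts was not tested beyond what each setting removes or rescales.

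No paired analysis was possible because each genotype had 1 library and no test was run. Depth limits the low sites: with 5 tags behind the lowest peaks, the counting interval of a ratio there is wide.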
